A study of Macaca mulatta with 24 samples.

Results

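Retinoid transport and metabolism in visceral fat was followed through 9 genes: the plasma carrier RBP4, its receptor STRA6, the esterifying enzyme LRAT, the retinol dehydrogenase RDH10, the retinal reductase DHRS3, the retinoic acid synthesizing enzymes ALDH1A1, ALDH1A2 and ALDH1A3, and the retinoic acid degrading enzyme CYP26B1. The genes were chosen by symbol for their roles in the pathway, with earlier results of these data known. Each symbol was matched to the Ensembl gene of the counts table that bears it. Of the 9 genes, 8 were matched among the 32386 genes of the table, and all 8 passed the filter on low counts. LRAT was not analysed here.

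The tissue was omental white adipose tissue (WAT), which is fat of the visceral kind, taken from 24 female rhesus macaques that formed 4 groups of 6, and RNA depleted of ribosomal RNA was sequenced with 1 library per animal. The design asks how a raised androgen level, a fat-rich diet and their combination affect the transcripts of visceral fat. Controls (*C*) carried cholesterol implants and ate monkey chow, the *T* group carried testosterone implants on chow, the *WSD* group ate a high-fat Western-style diet with control implants, and the *T* + *WSD* group had both treatments. All treatments lasted 3 years, the labels give an age of 4 years for every animal while the study's methods give a higher age, and the sequenced animals were picked to represent the fat mass and insulin findings of their groups.

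Vitamin A travels in plasma as retinol bound to RBP4, and STRA6 is a cell surface receptor that takes retinol from this carrier. Inside cells, retinol is stored as esters made by LRAT or oxidized to retinal by RDH10, a step that DHRS3 reverses, and the ALDH1A enzymes turn retinal into retinoic acid, the ligand of nuclear receptors, which CYP26 enzymes break down. Adipose tissue stores retinol and secretes RBP4, and retinoic acid influences the differentiation of fat cells.

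Between 6899185 and 28270776 counts were assigned to genes in each library, with a median of 20630512.5. The totals ran from 8873248 to 22040690 in *C*, from 13836058 to 28270776 in *T*, from 9006135 to 23839192 in *WSD* and from 6899185 to 21015713 in *T* + *WSD*. Levels are given as CPM, the counts scaled to 1000000 of the normalized library size. The adipocyte markers of the labelled tissue were present in all animals: the 11 markers in the table were above 0 in every library, with LPL the most abundant.

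Some libraries stood apart from the rest. In 8 libraries, 2 in each group, the gene ENSMMUG00000038258 took over 5% of the counts, from 9.92% in *C* replicate 1 to 54.7% in *T* + *WSD* replicate 8. They are called the 8 high-share libraries here, and the labels name no batch. *C* replicate 1 had a summed adipocyte marker level of 3686 CPM, the lowest of the 24 animals, and a summed mesothelial marker level of 41155 CPM, the highest. It also held the lowest RBP4 level of all animals and the highest levels of ALDH1A1, ALDH1A2 and ALDH1A3, so for these genes the comparisons with *C* that it moved by over 1.5 times, and all calls, are also given without it.

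In *T* + *WSD* compared with *C*, which asks what the combined treatment changed, 2 retinoic acid synthesizing enzymes and the retinol dehydrogenase before them were lower. ALDH1A3, ALDH1A2 and RDH10 were called, which required an edgeR adjusted p below 0.05 together with a change of more than 1.5-fold, and they made up 3 of the 8 genes tested. Across all 15207 genes tested, 1522 (10%) were called, 804 (5.29%) as lower and 718 (4.72%) as higher. The 8 genes were chosen with earlier results of these data known, so these shares are no test of the set. In each of the 3 genes all 6 *T* + *WSD* animals lay below every control, as did 626 (4.12%) of all genes. The log2 fold change was negative in 7 of the 8 genes, with a median of -0.76, against 54.9% of all genes with a median of -0.04.

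ALDH1A2 (ENSMMUG00000019504) makes retinoic acid from retinal and is the main such enzyme of the early embryo. Its lowest, median and highest levels were 175, 194 and 645 CPM in *C* and 50.6, 91.3 and 119 CPM in *T* + *WSD*. Every animal given both treatments was thus below the lowest control, although the highest control, replicate 1, was far above the others of its group. The means were 295 ± 187 CPM (SD, n = 6) in *C* and 88.9 ± 25.3 CPM (SD, n = 6) in *T* + *WSD*. The log2 fold change was -1.72 (SE 0.38, 95% confidence interval -2.50 to -0.95; edgeR's quasi-likelihood test, adjusted p = 0.00607). Without *C* replicate 1 it was -1.32 (edgeR adjusted p = 0.0228).

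ALDH1A3 (ENSMMUG00000006659), another enzyme that makes retinoic acid from retinal, ran from 498 to 1327 CPM in *C*, with a median of 677, and from 167 to 354 CPM in *T* + *WSD*, with a median of 319. The groups did not overlap, and *C* replicate 1 was again the highest control. ALDH1A3 fell by 1.40 on the log2 scale (SE 0.24, 95% confidence interval -1.90 to -0.89; edgeR's quasi-likelihood test, adjusted p = 0.00295). Without *C* replicate 1 the log2 fold change was -1.15 (edgeR adjusted p = 0.00813).

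RDH10 (ENSMMUG00000005143), which oxidizes retinol to retinal, had its lowest, median and highest levels at 39.0, 46.9 and 52.3 CPM in *C* and at 21.2, 29.1 and 32.7 CPM in *T* + *WSD*. Here the controls lay close together and *C* replicate 1 was within their range. The log2 fold change was -0.70 (SE 0.16, 95% confidence interval -1.03 to -0.37; edgeR's quasi-likelihood test, adjusted p = 0.00740), and -0.69 without *C* replicate 1 (edgeR adjusted p = 0.0197).

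**Figure D1:**
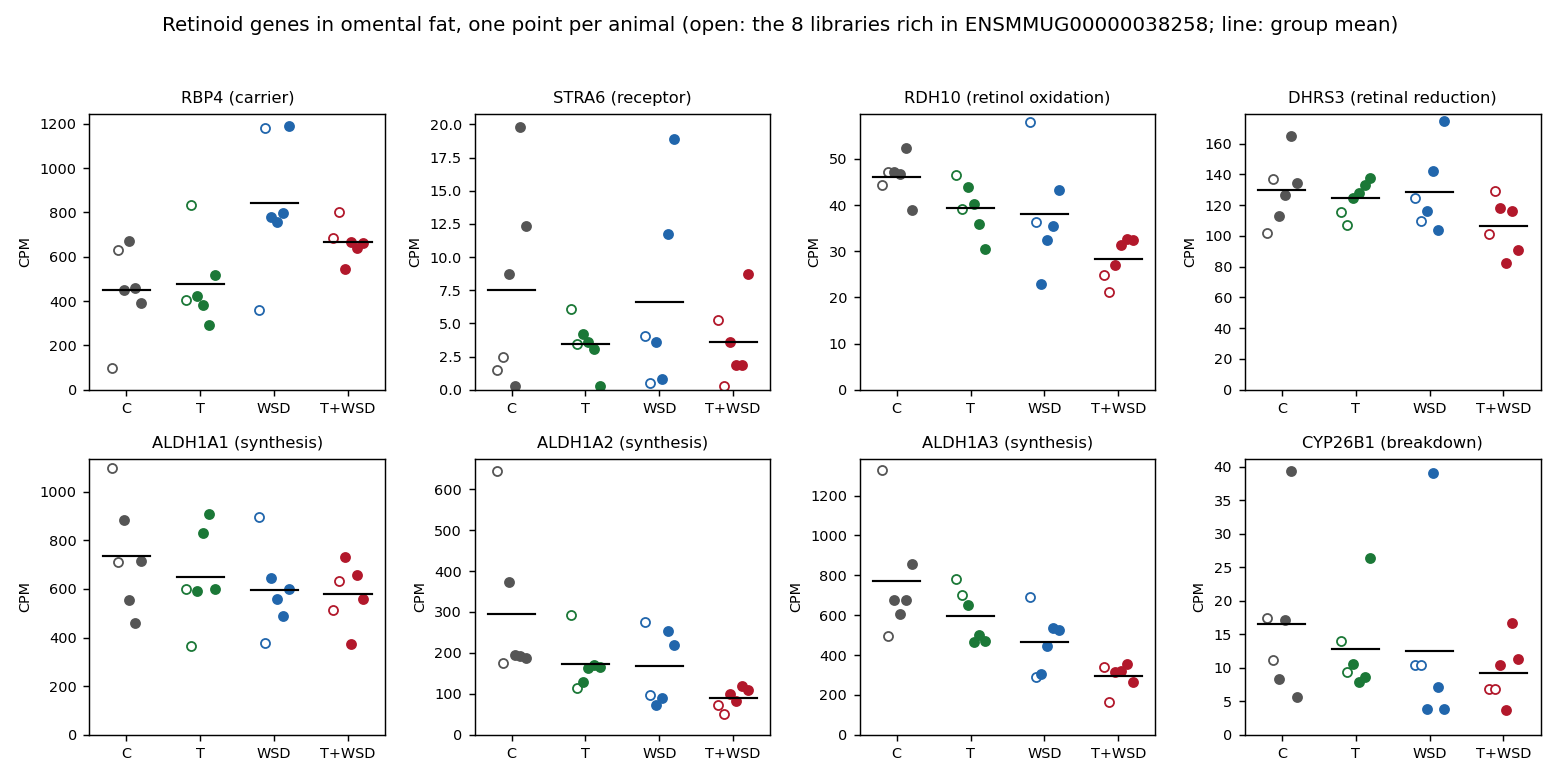
Level of each retinoid gene in CPM (vertical axes) in the 4 groups (horizontal axes), with 1 point per animal, open points for the 8 high-share libraries and a line at each group mean. In ALDH1A2, ALDH1A3 and RDH10 the 6 *T* + *WSD* animals lie below every control.

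The other 5 genes did not pass the test in *T* + *WSD* compared with *C*, with edgeR adjusted p from 0.142 to 0.429. RBP4, the carrier, was the 1 gene with a positive log2 fold change, 0.56 (95% confidence interval -0.12 to 1.24). STRA6, the receptor, had a log2 fold change of -1.02 with a wide 95% confidence interval of -2.77 to 0.72. ALDH1A1, the synthesizing enzyme not called, had -0.35 (95% confidence interval -0.83 to 0.13). DHRS3, the reductase, had -0.28 (95% confidence interval -0.56 to -0.01, edgeR adjusted p = 0.142), and CYP26B1, which degrades retinoic acid, had -0.82 (95% confidence interval -1.93 to 0.29). Without *C* replicate 1 the log2 fold change was 0.37 for RBP4 (edgeR adjusted p = 0.385) and -0.18 for ALDH1A1 (edgeR adjusted p = 0.659). Without *C* replicate 5 it was -0.35 for CYP26B1 (edgeR adjusted p = 0.686) and -0.46 for STRA6 (edgeR adjusted p = 0.756). These intervals do not show that the 5 genes were alike in both groups.

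The calls depended on the libraries used. In the 16 libraries outside the 8 high-share ones, with 4 animals per group and without *C* replicate 1, 1 of the 8 genes was called: ALDH1A3 had a log2 fold change of -1.15 (edgeR adjusted p = 0.0341), ALDH1A2 -1.19 (edgeR adjusted p = 0.0905) and RDH10 -0.57 (edgeR adjusted p = 0.0898). In the 8 high-share libraries, with 2 animals per group, the log2 fold changes were -1.83 for ALDH1A3, -2.72 for ALDH1A2 and -0.96 for RDH10, and edgeR adjusted p was 0.348, 0.330 and 0.330. Over all genes, 78 were called in the 16 libraries, 0 in the 8 libraries and 900 without *C* replicate 1.

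Markers of the mesothelium, the cell layer on the surface of the omentum, moved with these 3 genes. The marker lists were chosen with earlier results of these data known. Of the 12 mesothelial markers in the table, 10 were called as lower in *T* + *WSD* compared with *C*, with a median log2 fold change of -2.49. Their summed level was 12919 ± 14118 CPM (SD, n = 6) in *C* and 1570 ± 1153 CPM (SD, n = 6) in *T* + *WSD*, with ITLN1 the most abundant and at most 1 marker at 0 counts in a library. By animal the sum ran from 3458 to 41155 CPM in *C* (median 8396), from 3409 to 18616 CPM in *T* (median 4467), from 913 to 6902 CPM in *WSD* (median 5108) and from 332 to 3472 CPM in *T* + *WSD* (median 1212). The sums overlapped, since *T* + *WSD* replicate 11, at 3472 CPM, lay above *C* replicate 5, at 3458 CPM, while on the mean log2 CPM of the list every *T* + *WSD* animal, at 5.52 or less, was below every control, at 6.54 or more.

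With the mean log2 CPM of the mesothelial markers as a covariate, none of the 8 genes was called, and the log2 fold changes in *T* + *WSD* compared with *C* were -0.08 for ALDH1A2, -0.35 for ALDH1A3 and -0.21 for RDH10 (edgeR adjusted p = 0.9996 for each). In that fit 0 of all tested genes were called in the same comparison. The covariate and the treatment separated the *T* + *WSD* and *C* animals in the same way, so that their parts cannot be told apart. In bulk tissue, fewer cells of a type and less RNA per cell cannot be told apart either.

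**Figure D2:**
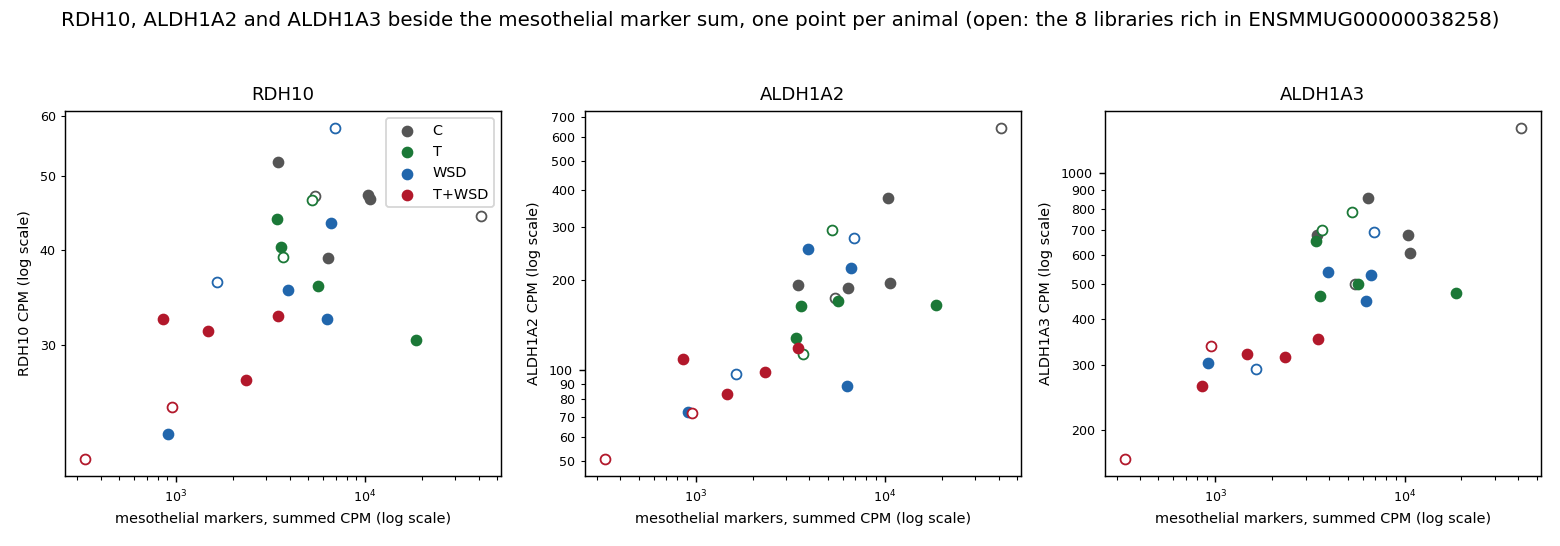
CPM of RDH10, ALDH1A2 and ALDH1A3 (vertical axes, log scale) against the summed CPM of 12 mesothelial markers (horizontal axes, log scale), with 1 point per animal coloured by group and open points for the 8 high-share libraries. *T* + *WSD* replicate 8 has the lowest marker sum, 332 CPM, and the lowest level of each gene, and *C* replicate 1 has the highest sum, 41155 CPM, and the highest ALDH1A2 and ALDH1A3.

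Other cell type markers were described in the same comparison, and their part in the results was not tested. Of the endothelial markers, 5 of 10 were called as higher, with summed levels of 1430 ± 303 CPM (SD, n = 6) in *C* and 2368 ± 397 CPM (SD, n = 6) in *T* + *WSD* and VWF the most abundant. Of the smooth muscle and pericyte markers, 3 of 8 were called as higher, with summed levels of 909 ± 316 CPM (SD, n = 6) in *C* and 1570 ± 196 CPM (SD, n = 6) in *T* + *WSD* and TAGLN the most abundant. Of the adipocyte markers 2 of 11 were called as higher, with summed levels of 17101 ± 7607 CPM (SD, n = 6) in *C* and 29322 ± 4665 CPM (SD, n = 6) in *T* + *WSD*. Of the fibroblast and preadipocyte markers 1 of 10 was called, as lower, with summed levels of 14179 ± 5912 CPM (SD, n = 6) in *C* and 12491 ± 2626 CPM (SD, n = 6) in *T* + *WSD* and COL3A1 the most abundant. Among the 8 macrophage markers (most abundant CSF1R) and the 6 lymphocyte markers (most abundant NKG7) edgeR gave no unadjusted p under 0.05. The summed macrophage level was 739 ± 392 CPM (SD, n = 6) in *C* and 813 ± 183 CPM (SD, n = 6) in *T* + *WSD*, and the summed lymphocyte level was 5.65 ± 3.64 and 5.89 ± 2.63 CPM (SD, n = 6 each).

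RBP4 and TTR, its partner in plasma, are made largely in the liver, so liver markers were examined beside them. Of the 8 hepatocyte markers, 3 were tested and 1, ALB, was called as higher in *T* + *WSD* compared with *C*. ALB, the albumin of plasma, ran from 0 to 0.492 CPM in *C* and from 0 to 34.3 CPM in *T* + *WSD* (median 1.28), with 4 of 6 animals above every control and a log2 fold change of 5.25 (edgeR adjusted p = 0.00988). It was named after its values were seen. A single *T* + *WSD* animal held 798 of the 1045 ALB counts of all libraries. The size of the ALB fold change thus rests largely on that animal, and no value without it is given here. TF was the most abundant of the list, whose summed level was 246 ± 201 CPM (SD, n = 6) in *C* and 272 ± 108 CPM (SD, n = 6) in *T* + *WSD*. APOA2 was at 0 in all controls and reached 39 counts in *T* + *WSD*. FGA reached 2 counts in *C* and 121 in *T* + *WSD*, and FGB reached 4 and 70. SERPINA1 had a lower mean in *T* + *WSD*, 26.6 CPM, than in *C*, 40.5 CPM. APOH did not exceed 3 counts in any animal and TTR did not exceed 16 counts. *T* + *WSD* replicate 11 had the highest mean log2 CPM of the list, 6.18. The part of liver transcripts in the RBP4 values was not tested.

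In *WSD* compared with *C*, which asks for the effect of diet alone, RBP4 had the largest positive difference of the 8 genes but did not pass the test. By edgeR's quasi-likelihood test 0 of the 8 genes were called, and 0 of the 15207 genes (0%), while 3 of the 8 and 2807 of all genes had an unadjusted p under 0.05. With DESeq2, 0 of the 8 genes and 238 of all genes were called. The log2 fold change was negative in 7 of the 8 genes.

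RBP4 (ENSMMUG00000014711) had lowest, median and highest levels of 98.4, 456 and 672 CPM in *C* and 358, 786 and 1191 CPM in *WSD*. In 5 of the 6 *WSD* animals RBP4 was above every control, and the remaining animal lay within the control range. The log2 fold change was 0.91 (SE 0.33, 95% confidence interval 0.22 to 1.59; edgeR's quasi-likelihood test, unadjusted p = 0.0116, adjusted p = 0.173). Without *C* replicate 1, the lowest control, it was 0.70 (edgeR adjusted p = 0.381).

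ALDH1A3 and ALDH1A2 had the largest negative differences under the diet alone. ALDH1A3 ran from 293 to 692 CPM in *WSD* (median 488), with 3 of 6 animals below every control and a log2 fold change of -0.73 (edgeR adjusted p = 0.151). ALDH1A2 ran from 72.9 to 275 CPM (median 158), also with 3 of 6 animals below every control and a log2 fold change of -0.81 (edgeR adjusted p = 0.240). Without *C* replicate 1 the log2 fold changes were -0.50 for ALDH1A3 (edgeR adjusted p = 0.439), -0.42 for ALDH1A2 (edgeR adjusted p = 0.652) and -0.16 for ALDH1A1 (edgeR adjusted p = 0.815). RDH10 ran from 22.8 to 58.0 CPM, on both sides of the controls, with -0.28 (edgeR adjusted p = 0.340). For RDH10 the value was -0.44 without *WSD* replicate 19 (edgeR adjusted p = 0.0879) and -0.17 without *WSD* replicate 21 (edgeR adjusted p = 0.568). The differences of DHRS3, ALDH1A1, STRA6 and CYP26B1 were small beside their spread, from -0.41 to -0.01.

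In *T* compared with *C*, which asks for the effect of testosterone alone, ALDH1A2 was the 1 gene with an unadjusted p under 0.05. Its levels ran from 114 to 293 CPM in *T* (median 164), with 5 of 6 animals below every control, and its log2 fold change was -0.77 (95% confidence interval -1.53 to -0.02; edgeR's quasi-likelihood test, adjusted p = 0.575). Without *C* replicate 1 it was -0.38 (edgeR adjusted p = 0.910). By edgeR 0 of the 8 genes and 0 of all genes (0%) were called, with 1312 of all genes at an unadjusted p under 0.05, and DESeq2 called 0 of the 8 and 7 of all genes. ALDH1A3 ran from 464 to 783 CPM in *T* (median 576), RDH10 from 30.4 to 46.5 CPM (median 39.7) and RBP4 from 293 to 835 CPM (median 414), and all 3 overlapped with the controls. The log2 fold changes with and without *C* replicate 1 were -0.38 and -0.15 for ALDH1A3, 0.08 and -0.13 for RBP4, and -0.18 and -0.034 for ALDH1A1. STRA6 had the largest difference of the 8 genes, -1.16, with a wide 95% confidence interval of -2.90 to 0.59. With 1 animal left out its value ran from -1.41 (without *C* replicate 4) to -0.59 (without *C* replicate 5). CYP26B1 had -0.37, RDH10 -0.23 and DHRS3 -0.06.

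Against the *T* group, which asks what the diet added under testosterone, ALDH1A3 was lower in *T* + *WSD*. All 6 *T* + *WSD* animals lay below every *T* animal, as was so for 472 of the 15207 genes tested. The log2 fold change of ALDH1A3 was -1.02 (SE 0.24, 95% confidence interval -1.52 to -0.52; edgeR's quasi-likelihood test, adjusted p = 0.0203). This was 1 of the 8 genes, where 574 of all genes (3.77%) were called. In the 16 libraries outside the 8 high-share ones it was -0.72 (edgeR adjusted p = 0.0453), and with the mesothelial covariate -0.18 (edgeR adjusted p = 0.911). Of the 12 mesothelial markers, 8 were called as lower in the same comparison, with a median log2 fold change of -2.06. ALDH1A2 had a log2 fold change of -0.95 (edgeR adjusted p = 0.112) with 5 of 6 animals below every *T* animal, and RDH10 had -0.47 (edgeR adjusted p = 0.0721) with 3 of 6.

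Against the *WSD* group, which asks what testosterone added under the diet, all 8 log2 fold changes of *T* + *WSD* were negative and none passed the test. By edgeR 0 of the 8 genes were called, where 124 of all genes (0.815%) were, and DESeq2 called 0 of the 8. ALDH1A3 (-0.67, adjusted p = 0.123), ALDH1A2 (-0.91, adjusted p = 0.166) and RDH10 (-0.42, adjusted p = 0.144) were the 3 genes with an unadjusted p under 0.05 in edgeR's quasi-likelihood test. RDH10 had -0.26 without *WSD* replicate 19 (edgeR adjusted p = 0.318) and -0.53 without *WSD* replicate 21, where its edgeR adjusted p was 0.0368 but the change stayed under the fold threshold. RBP4, at 543 to 801 CPM in *T* + *WSD*, lay within the range of the *WSD* animals, with a log2 fold change of -0.34 (edgeR adjusted p = 0.597).

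**Figure D3:**
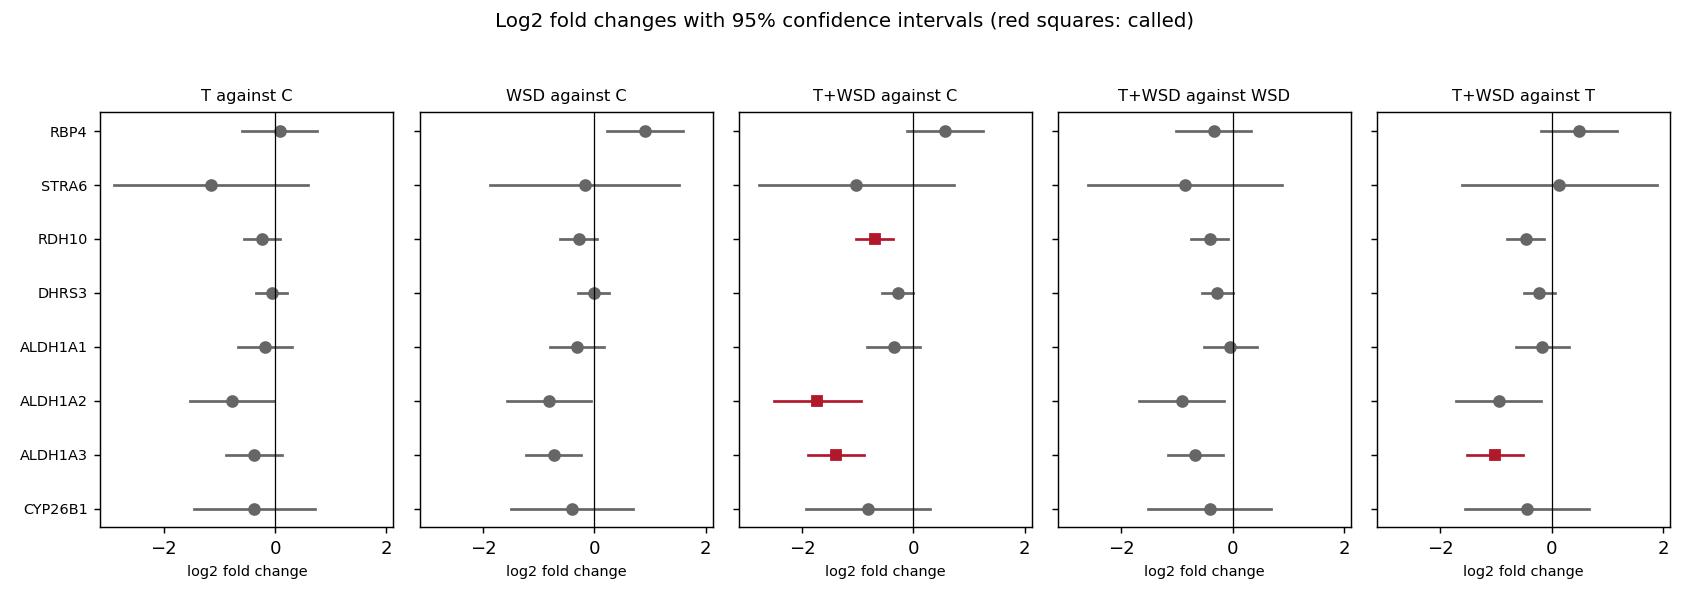
Log2 fold change (horizontal axes) of each retinoid gene (vertical axis) in 5 comparisons, with 95% confidence intervals as bars and red squares for called genes. ALDH1A2, ALDH1A3 and RDH10 are called in *T* + *WSD* compared with *C*, and ALDH1A3 in *T* + *WSD* compared with *T*.

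The interaction of testosterone and diet, which asks whether the effect of testosterone depends on the diet, gave no call among the 8 genes. Their edgeR adjusted p ran from 0.682 for DHRS3 to 0.993 for CYP26B1, 0 had an unadjusted p under 0.05, and DESeq2 called 0. Across all genes, 123 (0.809%) had an edgeR adjusted p under 0.1. The interaction was -0.14 for ALDH1A2 (95% confidence interval -1.21 to 0.93), -0.29 for ALDH1A3 (95% confidence interval -0.99 to 0.41) and -0.19 for RDH10 (95% confidence interval -0.65 to 0.28). These intervals do not show that the effects of testosterone and diet were additive on the log2 scale. With 1 animal left out, the interaction of ALDH1A2 ran from -0.51 (without *C* replicate 1) to 0.077 (without *T* replicate 13), that of ALDH1A3 from -0.51 (without *C* replicate 1) to -0.15 (without *WSD* replicate 19), and that of RDH10 from -0.30 (without *WSD* replicate 21) to -0.034 (without *WSD* replicate 19).

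The order of the group means was the same in ALDH1A1, ALDH1A2, ALDH1A3, RDH10 and CYP26B1: *C*, then *T*, then *WSD*, then *T* + *WSD*. For ALDH1A3 the means were 773 ± 295, 596 ± 135, 467 ± 153 and 294 ± 69.3 CPM (SD, n = 6 each). For RDH10 they were 46.1 ± 4.35, 39.4 ± 5.76, 38.1 ± 11.8 and 28.2 ± 4.68 CPM (SD, n = 6 each). Over all 8 genes, groups next to each other in the order differed by less than the larger of their SDs, except *C* and *T* in RDH10 and *WSD* and *T* + *WSD* in ALDH1A3. RBP4 had another order, with 844 ± 312 CPM in *WSD*, 666 ± 83.1 in *T* + *WSD*, 476 ± 190 in *T* and 450.4 ± 204 in *C* (SD, n = 6 each).

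Within the ALDH1A family the balance of counts differed between groups. These shares are of counts that are not per length, so they compare groups and not enzymes. ALDH1A2 took 15.4 ± 3.97% (SD, n = 6) of the family's counts in *C* and 9.23 ± 2.17% in *T* + *WSD*, with 11.97 ± 3.05% in *T* and 13.1 ± 4.88% in *WSD* between them, and ALDH1A3 took 43.1 ± 6.47% in *C* and 30.8 ± 7.58% in *T* + *WSD*. The share of ALDH1A1, the enzyme that was not called, was 41.5 ± 6.24% in *C* and 59.9 ± 8.85% in *T* + *WSD* (SD, n = 6). The summed level of the family was 1805 ± 667 CPM in *C* and 960 ± 149 CPM in *T* + *WSD* (SD, n = 6), and no test was made of the shares or the sum.

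**Figure D4:**
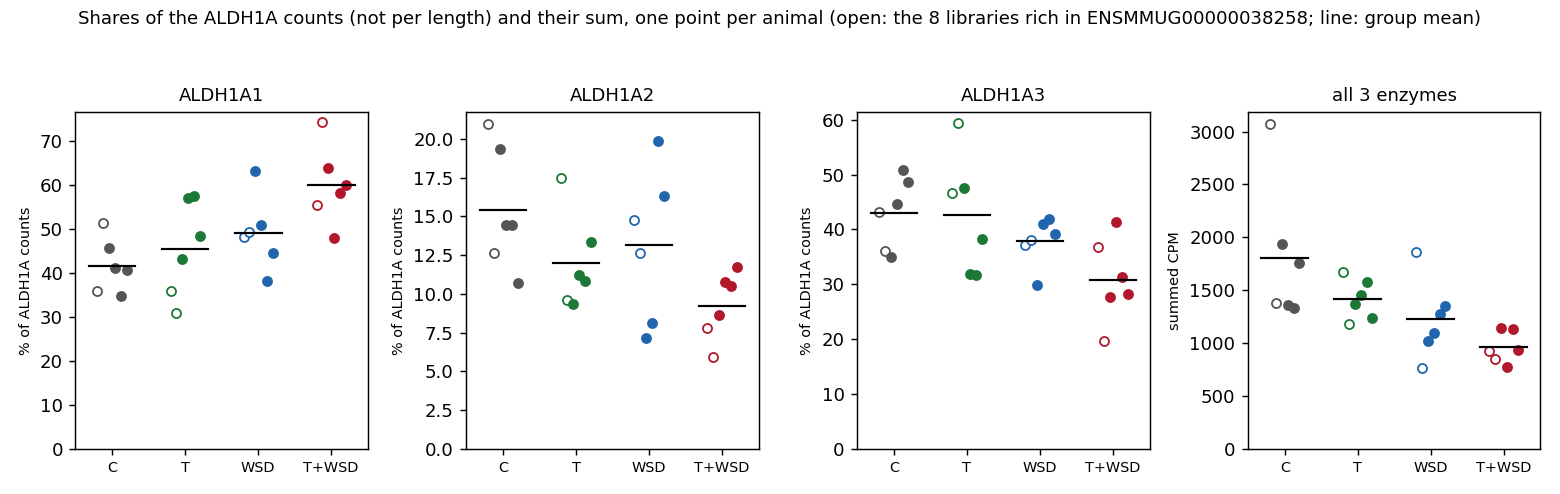
Share of each enzyme in the summed ALDH1A counts (vertical axes, percent, not per length) and the summed CPM of the family, by group (horizontal axes), with 1 point per animal, open points for the 8 high-share libraries and a line at each group mean. The summed level runs from 1329 to 3070 CPM in *C* and from 777 to 1146 CPM in *T* + *WSD*, without overlap.

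The genes differed in how much they varied between animals of a group. STRA6 (ENSMMUG00000001837) ran from 0.289 to 19.8 CPM in *C* and from 0.283 to 8.73 CPM in *T* + *WSD*, and it rested on few reads, from 1 to 455 counts per library. Its biological coefficient of variation, fitted over all 4 groups, was 0.972, the highest of the 8 genes and above that of 97.8% of the tested genes. CYP26B1 (ENSMMUG00000012141), with 24 to 992 counts per library, ran from 5.68 to 39.4 CPM in *C* and from 3.71 to 16.7 CPM in *T* + *WSD*. DHRS3 (ENSMMUG00000005681) and RDH10 had the lowest fitted coefficients of the 8, 0.171 and 0.195, although within *T* + *WSD* the CV was lower in RBP4, at 12.5%, than in DHRS3, at 16.8%, and RDH10, at 16.6%. DHRS3 ran from 102 to 165 CPM in *C* and from 82.6 to 129 CPM in *T* + *WSD*. ALDH1A1 (ENSMMUG00000013303) ran from 461 to 1099 CPM in *C* and from 372 to 730.0 CPM in *T* + *WSD*.

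Other genes of retinoid biology were taken from a list of 63, of which 53 were in the table and 45 were tested. This list too was chosen with earlier results of these data known. In *T* + *WSD* compared with *C*, 3 were called as higher and 6 as lower, 20% of the 45 beside 10% of all genes. Those higher were RBP7, a cellular retinol binding protein (log2 fold change 0.996, adjusted p = 0.00918, 5 of 6 animals above every control), the scavenger receptor SCARB1 (0.77, adjusted p = 0.0421, 5 of 6) and the nuclear receptor NR2F2 (0.63, adjusted p = 0.0253, 6 of 6), all by edgeR's quasi-likelihood test. Of the 15207 genes tested, 531 had every *T* + *WSD* animal above every control. SCARB1 was not called without any 1 of *C* replicates 1, 2, 3 and 6 and *T* + *WSD* replicates 7, 8, 10 and 11 (edgeR adjusted p up to 0.0919), nor NR2F2 without *C* replicate 1 or 3 or *T* + *WSD* replicate 7 (edgeR adjusted p up to 0.0631). Those lower included ADH1B, LRP2, TGM2, RARRES2 and MEIS1. DESeq2, which tested 53 genes of the list, called 4 as higher and 8 as lower, adding CD36, ADH1A and RARRES3. Of the 7 genes in the list's group of receptors, which does not hold NR2F2, 0 were called by edgeR and 0 by DESeq2, and 4 had an unadjusted p under 0.05 by edgeR. Of these RXRB, named after its values were seen, had an edgeR adjusted p of 0.0197 but a log2 fold change of -0.24, under the fold threshold. RARB had a log2 fold change of -0.54 (edgeR adjusted p = 0.0752), RARG -0.44 (edgeR adjusted p = 0.105) and RXRG 1.01 (edgeR adjusted p = 0.102). RARA had 0.08, RXRA 0.13 and CRABP2, a cellular retinoic acid binding protein, 1.66 (edgeR adjusted p = 0.157), while CYP26A1 and TTR were not tested. CRABP2 reached 14.7 CPM in *C*, where its mean was 3.61 and its median 0.966 CPM. The control mean of CRABP2 thus rests largely on the highest control. In *T* + *WSD* its median was 8.49 CPM.

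Of the list's 11 tested genes that are known to respond to retinoic acid, 3 were called as lower with both treatments (TGM2, RARRES2 and MEIS1), 1 as higher (NR2F2) and 7 were not called, where 10% of all genes were called. TGM2, a transglutaminase, ran from 137 to 361 CPM in *C* (median 235) and from 26.01 to 132 CPM in *T* + *WSD* (median 74.7), without overlap, with a log2 fold change of -1.76 (edgeR adjusted p = 0.00295). RARRES2, the secreted protein chemerin, ran from 123 to 269 CPM in *C* (median 198) and from 72.9 to 112 CPM in *T* + *WSD* (median 85.8), also without overlap, with -1.05 (edgeR adjusted p = 0.00681). Of all genes, 626 (4.12%) had every *T* + *WSD* animal below every control in this way. The calls of TGM2, RARRES2, ADH1B and RBP7 held with any 1 of the 24 animals left out. MEIS1, a homeobox factor, had -0.64 (edgeR adjusted p = 0.0465, 5 of 6 animals below every control), and was lost without any 1 of *C* replicates 1, 3 and 6, *T* replicates 13, 15 and 17, *WSD* replicate 23 and *T* + *WSD* replicates 7 to 11 (edgeR adjusted p up to 0.166). LRP2, an endocytic receptor from the list's group of carriers and uptake, had -2.90 (edgeR adjusted p = 0.0262) with 2 of 6 animals below every control. Its call was lost without *C* replicate 1, at 171 CPM, or *T* + *WSD* replicate 7, 8 or 11 (edgeR adjusted p up to 0.182). In the 16 libraries outside the 8 high-share ones, which leave out *C* replicate 1, its log2 fold change was -1.18 (edgeR adjusted p = 0.381).

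ADH1B, an alcohol dehydrogenase that can oxidize retinol, was the 1 gene of the list called in *T* + *WSD* against each of *C*, *T* and *WSD* and in the interaction. Its lowest, median and highest levels were 437, 1190.3 and 1830 CPM in *C*, 1331, 1639 and 3667 CPM in *T*, 342, 926 and 1354 CPM in *WSD*, and 132, 204 and 543 CPM in *T* + *WSD*. All *T* + *WSD* animals lay below every *T* animal, as was so for 472 of the 15207 genes tested, and 5 of 6 lay below every control. The log2 fold change of *T* + *WSD* was -2.25 against *C* (edgeR adjusted p = 0.00295), -2.99 against *T* (edgeR adjusted p = 0.00114) and -1.89 against *WSD* (edgeR adjusted p = 0.0252), and its interaction of testosterone and diet was -2.63 (edgeR adjusted p = 0.0396). In the 16 libraries outside the 8 high-share ones the interaction was -2.70 (edgeR adjusted p = 0.343), and the log2 fold change was -1.87 against *C* (edgeR adjusted p = 0.0810), -3.02 against *T* (edgeR adjusted p = 0.0234) and -1.55 against *WSD* (edgeR adjusted p = 0.269). Against *WSD* the call was lost without any 1 of *WSD* replicates 20 and 24 and *T* + *WSD* replicates 7 to 10 (edgeR adjusted p up to 0.0717). The symbol ADH1B belongs to 2 identifiers, and the one with more counts was used. The alcohol dehydrogenases of this class are near-identical copies whose reads could be split between them, so the values are uncertain.

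The remaining comparisons held from 0 to 3 calls in the list by edgeR, and DESeq2 tested 53 genes of the list in each. In *T* + *WSD* compared with *T*, 3 of the 45 (6.67%, beside 3.77% of all genes) were called, all lower: ADH1B, ADH5 (-0.60, adjusted p = 0.0194) and TGM2 (-1.42, adjusted p = 0.0151). ADH5, another alcohol dehydrogenase, was close to the fold threshold and was not called without any 1 of *C* replicates 1 and 2, *T* replicates 15, 16 and 18 and *T* + *WSD* replicate 10 (edgeR adjusted p up to 0.0479). There DESeq2 called 1 as higher and 4 as lower, without ADH5. In *T* + *WSD* compared with *WSD*, 1 was called, ADH1B (2.22%, beside 0.815% of all genes), where DESeq2 called 4. In the interaction 1 was called, ADH1B (2.22%, beside 0.809% of all genes), where DESeq2 called 3. In *WSD* compared with *C* 0 were called, with 11 at an unadjusted p under 0.05, and DESeq2 called 1. In *T* compared with *C* 0 were called, with 5 at an unadjusted p under 0.05, and DESeq2 called 0. In the 16 libraries outside the 8 high-share ones, TGM2 was the 1 gene of the list called in *T* + *WSD* compared with *C* (log2 fold change -1.84, edgeR adjusted p = 0.0436), and with the mesothelial covariate 0 were called in it by edgeR. ADH1B had a log2 fold change of -2.13 against *C* with that covariate (edgeR adjusted p = 0.9996) and -2.90 against *T* (edgeR adjusted p = 0.0901), and its interaction, -2.59, was called (edgeR adjusted p = 0.0709).

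**Figure D5:**
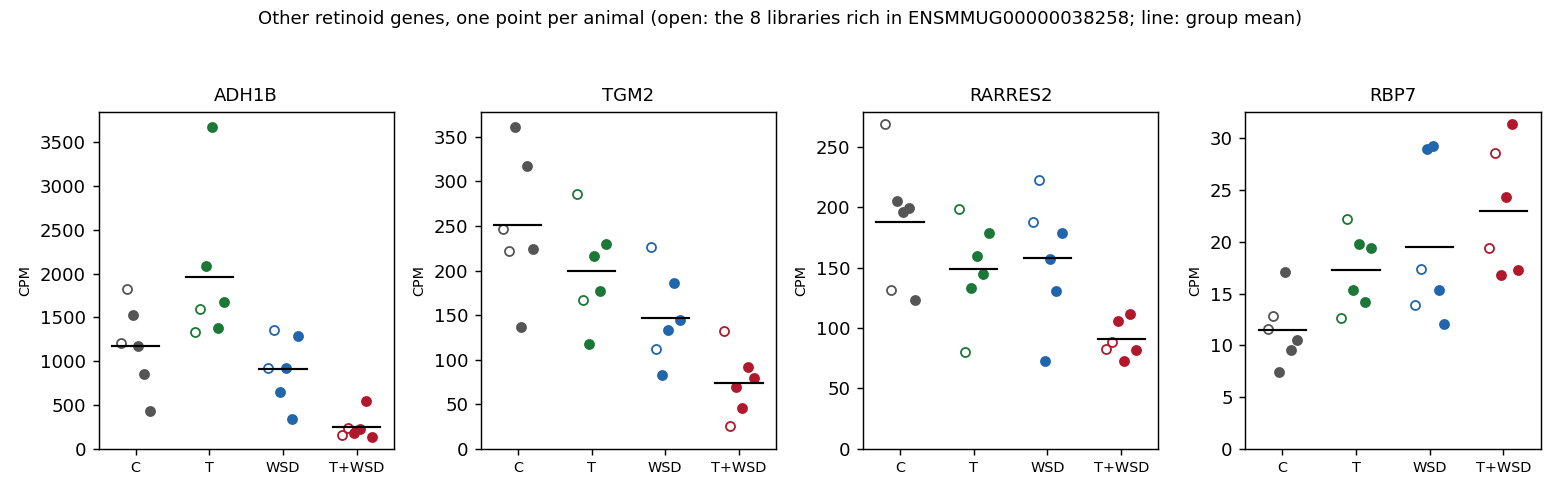
CPM (vertical axes) of ADH1B, TGM2, RARRES2 and RBP7 by group (horizontal axes), with 1 point per animal, open points for the 8 high-share libraries and a line at each group mean. ADH1B runs from 1331 to 3667 CPM in *T* and from 132 to 543 CPM in *T* + *WSD*, and TGM2 and RARRES2 do not overlap between *C* and *T* + *WSD*.

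For each gene the most similar genes over the 24 animals were found by Pearson's r of log2 CPM after the group means were subtracted, among 11680 genes, as a description. RBP4 was closest to APOC1 (r = 0.933), DGAT2 (0.916), which is on the adipocyte list, and TCAF1 (0.913). STRA6 was closest to ETV4 (0.934), KIF20A (0.926) and CEP55 (0.925). ALDH1A2 was closest to LRRC42 (0.909), CLIC5 (0.898) and TSPAN5 (0.889), and ALDH1A3 to NFE2L3 (0.864), PTGIS (0.842) and ENKD1 (0.836). No other retinoid gene was among the closest 3 of any of the 8.

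RDH10 was closest to DIRAS1 (0.845), PAPPA (0.793) and ZDHHC23 (0.789), and ALDH1A1 to HDAC1 (0.819), LNP1 (0.814) and CMTM5 (0.795). DHRS3, closest to ZFAND3 (0.686), GPR146 (0.673) and PHLDB2 (0.661), and CYP26B1, closest to ZSCAN21 (0.652), DUSP8 (0.641) and DLG1 (0.635), had no gene as similar. The animals share their libraries and depth in these relations, and *C* replicate 1 is among them.

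No gene of the 9 had another retinoid gene of the lists as its nearest protein-coding neighbour in the RefSeq annotation of the telomere-to-telomere rhesus assembly MMU8v2.0, a newer build than the one used for alignment. RBP4 lies between FFAR4 and PDE6C there, ALDH1A2 between POLR2M and AQP9, ALDH1A3 between ASB7 and LRRK1, and RDH10 between RPL7 and STAU2. RBP4, STRA6, RDH10 and ALDH1A3 overlap no other annotated gene. ALDH1A1 and ALDH1A2 each overlap 2 others, DHRS3 overlaps 4 and CYP26B1 overlaps 1, and since the strand setting of the counting is not given in the sources used here, reads of overlapping genes may be mixed in these 4.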

How the data were processed

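Counts per Ensembl gene for 24 libraries were deposited by the authors, who trimmed reads with Trimmomatic 0.36, checked them with FastQC 0.11.5 and aligned them to rheMac8 with STAR 2.5.2b. The counting tool and strand setting are not given in the sources used here. With R 4.3.3, genes were filtered (filterByExpr, minimum count 10, minimum total 15), scaled by TMM and tested with edgeR 4.0.16 (quasi-likelihood test, Benjamini-Hochberg over 15207 genes) in 1 fit of 4 groups. A gene was called with adjusted p below 0.05 and more than 1.5-fold change, and for the interaction with adjusted p below 0.1. The comparisons with *C* share the same 6 controls. Alternatives were DESeq2 1.42.0, its size factors, no filter, only the groups compared, the 8 high-share libraries as a term or left out, a mesothelial covariate, no fold threshold, and each animal left out. Use of the 8 high-share libraries alone was chosen after seeing the data. Named were the 9 genes, other retinoid genes called in any comparison with a few preset ones, the 3 most similar genes of each, and the most abundant gene of each marker list. The members and lists were chosen with earlier results of these data known. Figures were drawn with Python 3.11.15, pandas 2.3.3 and matplotlib 3.10.9.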

Additional observations from a re-analysis of the deposited data

Results flagged for a closer look

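In 14 of 104 groups of 6 values, the highest animal lay far from the others of its group, with a gap over 0.625 of the group's range. For normally distributed values 5.2 such groups would pass at the 5% level, but CPM are skewed to high values, so this is not the number that chance gives here. In *C* replicate 1 this held for the summed mesothelial markers at 41155 CPM, LRP2 at 171.06 CPM and MEIS1 at 181.64 CPM. CYP26B1 stood apart in *C* replicate 5 at 39.416 CPM, in *T* replicate 18 at 26.316 CPM and in *WSD* replicate 22 at 39.138 CPM. ALDH1A2 stood apart in *T* replicate 13 at 292.86 CPM.

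ADH1B stood apart in *T* replicate 16 at 3667 CPM and in *T* + *WSD* replicate 11 at 543.08 CPM. Among the other marker sums, the mesothelial sum was far from its group in *T* replicate 18 at 18616 CPM, the hepatocyte sum in *T* replicate 16 at 1227.3 CPM and in *WSD* replicate 22 at 543.35 CPM, the lymphocyte sum in *C* replicate 2 at 12.804 CPM, and the smooth muscle and pericyte sum in *C* replicate 5 at 1544.9 CPM. The effect of testosterone on ADH1B differed between the diets, with an interaction of -2.63 on the log2 scale (edgeR adjusted p = 0.0396). In the 16 libraries outside the 8 high-share ones ADH1B had an interaction of -2.70 (edgeR adjusted p = 0.343), which did not pass the threshold.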

How the results depend on the processing

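Of the values under alternatives other than leaving out 1 animal, 338 kept their direction and side of the threshold, 10 were no longer past it, 1 came past it and 27 changed direction, none of the last past the threshold. With 1 animal left out, 1119 kept both and 33 changed direction. The 3 genes called in *T* + *WSD* against *C* and the 1 against *T* were called in each of these 24 fits. No paired analysis was possible because the animals' numbers are unique across groups. Groups of 6 animals, and few reads for STRA6, limit the precision. The cause was not tested for any change given here.

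The 16 libraries outside the 8 high-share libraries, the 8 alone and the mesothelial covariate gave 1, 0 and 0 of the 8 retinoid genes called in *T* + *WSD* against *C*. Against *T*, only the groups compared gave 2, the 8 libraries 0 and the covariate 0. Genes called in *T* + *WSD* against *C* numbered 78, 0 and 0 in the 16 libraries, the 8 and the covariate fit, and 2603 with no fold threshold. In *WSD* against *C* DESeq2 called 238, only the groups compared 1, and the fit with the 8 libraries as a term 1, and in *T* against *C* DESeq2 called 7. Against *WSD*, DESeq2 called 431, no filter 68, only the groups compared 46, the 16 libraries 0, the 8 libraries 0, the covariate 1 and no fold threshold 254. Against *T* these were 1090 with DESeq2, 1059 with only the groups compared, 308 in the 16 libraries, 0 in the 8, 0 with the covariate and 988 with no fold threshold. For the interaction they were 483 with DESeq2, 38 with no filter, 2 in the 16 libraries, 0 in the 8, 74 with the covariate and 44 at an adjusted p under 0.05.

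With 1 animal left out, the genes called ran from 900 (*C* replicate 1) to 1790 (*C* replicate 5) in *T* + *WSD* against *C*, from 0 to 59 (*WSD* replicate 19) in *WSD* against *C*, and from 0 to 1 in *T* against *C*. They ran from 9 (*WSD* replicate 24) to 448 (*WSD* replicate 21) against *WSD*, from 238 (*T* + *WSD* replicate 10) to 828 (*C* replicate 1) against *T*, and from 40 (*T* replicate 15) to 527 (*WSD* replicate 21) for the interaction.

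Log2 fold changes of the opposite sign in the 8 libraries were, for STRA6, 0.66 in *T* + *WSD* against *C*, 0.27 in *WSD* against *C*, 1.31 in *T* against *C*, 0.39 against *WSD*, -0.66 against *T* and -0.93 for the interaction. There RDH10 had 0.046 in *WSD* against *C*, DHRS3 0.0057 against *WSD*, 0.069 against *T* and 0.10 for the interaction, and ALDH1A1 0.26 against *T*. In the 16 libraries, RBP4 had -0.28 and ALDH1A1 0.17 in *T* against *C*, ALDH1A1 0.028 against *WSD* and -0.14 for the interaction, RDH10 0.19 and CYP26B1 0.055 for the interaction. With the covariate, ALDH1A1 had 0.016 and ALDH1A2 0.18 against *WSD*, ALDH1A2 0.33 and CYP26B1 0.13 against *T*, and for the interaction ALDH1A2 had 0.59, CYP26B1 0.28, RDH10 0.054 and ALDH1A3 0.16. With no filter DHRS3 had 0.00059 in *WSD* against *C*, and with the 8 libraries as a term STRA6 had -0.021 against *T*.

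With 1 animal left out, signs changed within these ranges: in *WSD* against *C*, STRA6 -0.84 to 0.39, DHRS3 -0.12 to 0.071 and CYP26B1 -1.25 to 0.066, and in *T* against *C*, RBP4 -0.15 to 0.23, DHRS3 -0.12 to 0.023 and CYP26B1 -0.72 to 0.10. Against *WSD*, ALDH1A1 ran from -0.14 to 0.11 and CYP26B1 from -0.67 to 0.43, and against *T* STRA6 from -0.35 to 0.36. For the interaction, STRA6 ran from -0.26 to 0.97, ALDH1A2 from -0.51 to 0.077 and CYP26B1 from -0.51 to 0.80.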
